A study of Mus musculus with 12 samples.

Results

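Calcium release, reuptake and buffering in the triceps brachii muscle were described through 10 genes taken by symbol: Cacna1s, Ryr1, Trdn, Casq1, Casq2, Atp2a1, Atp2a2, Sln, Pln and Pvalb. All 10 were among the 10187 genes measured. The mean over all mice was at least 10 normalized reads, the minimum for the main test, for 8 of them, and Sln and Pln lay under it. The mice were 12 C57/BL6 males in 4 groups of 3. The wild-type groups were IW (inactive) and AW (active), and the myostatin-reduced groups were IM (inactive) and AM (active). Every mouse, controls included, ate tamoxifen chow (0.025%) for 6 weeks in all between 4 and 6 months of age. The drug activated Cre recombinase and lowered myostatin only where the Mstn gene was floxed, at exon 3. The promoter that drives Cre is not given in the sources used here. Active mice lived alone with a running wheel for 12 weeks from 6 months of age, and inactive mice had no wheel. Before that, mice were kept in small groups, so running and single housing cannot be told apart. The mice sampled from the genotypes were matched for running.

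In a resting fibre calcium is held inside the sarcoplasmic reticulum, a membrane store wrapped around the contractile filaments. An action potential entering the transverse tubule is sensed by the dihydropyridine receptor, which opens the ryanodine receptor of the adjoining store, and the released calcium starts contraction. Relaxation follows when calcium is bound by soluble buffers and pumped back by the SERCA ATPases, and fast fibres are known for the abundance of this machinery and for parvalbumin.

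The targeted gene and the tissue were checked first. Mstn had 79.7 to 138 normalized reads in the 6 wild-type mice and 8.70 to 21.6 in the 6 myostatin-reduced mice, with no overlap (limma adjusted p = 1.29e-06). The skeletal muscle genes Acta1, Ckm, Des, Ttn and Myh4 together held 145237 to 197106 normalized reads in inactive and 120958 to 161082 in active mice. Depth was estimated at 9023684 to 12184255 reads per mouse, so that a floor of 3 reads lay at 0.231 to 0.316 normalized reads (counting error only). The summed level of 7 slow-fibre markers (Myh7, Myl2, Myl3, Tnnc1, Tnni1, Tnnt1, Tpm3) was uneven between mice of the same group, at 15.9 to 827 in inactive and 28.2 to 1188 in active mice. None of the 7 was called for activity or genotype by limma (smallest adjusted p = 0.137). In such bulk RNA, fewer cells of a type and less RNA per cell cannot be told apart.

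Together the 10 genes made up 5.27% to 7.05% of the summed values per mouse. Atp2a1 alone made up 3.36% to 4.53% and ranked 2 among all genes in every mouse. Levels of different genes were compared per kilobase of the longest annotated coding transcript. On that scale the mean over 12 mice was 11615 normalized reads per kb for Atp2a1, 8330 for Pvalb and 1804 for Casq1. The ranges of Atp2a1 (9059 to 14085) and Pvalb (5937 to 10676) overlapped, and that of Casq1 (1343 to 2315) was below both. The release genes followed, at 448 for Ryr1 (356 to 568), 367 for Trdn (181 to 467) and 312 for Cacna1s (261 to 340). The range of Trdn overlapped both others, and every value of Ryr1 was above every value of Cacna1s. The slow or cardiac forms were far lower, at 30.2 per kb for Atp2a2 and 10.4 for Casq2. By these means the pump inhibitors came last, at 7.55 per kb for Sln and 0.943 for Pln. In IM mice, however, Sln (12.5 per kb) was above Atp2a2 (6.81) and Casq2 (4.29). Among these 4 genes each range overlapped that of its neighbour in the order.

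Promoter sequence is shown for 3 genes of the release and storage machinery. Casq1 and Casq2 are shown because the calsequestrin forms moved in opposite directions with activity, and Ryr1 because its activity call was kept in every fit that was run. RefSeq start-site windows of build GRCm38.p6 matched 7 of the 10 genes, and Atp2a2, Sln and Trdn had no entry. The 250 bases before the start site are given 5′ to 3′ on the gene's strand, for Casq2 at chr3:102086165-102086414 (plus), for Casq1 at chr1:172219896-172220145 (minus) and for Ryr1 at chr7:29125152-29125401 (minus). Capitals mark E-box letters (CANNTG) and, in Casq2, a match to the MEF2 consensus.
Casq2: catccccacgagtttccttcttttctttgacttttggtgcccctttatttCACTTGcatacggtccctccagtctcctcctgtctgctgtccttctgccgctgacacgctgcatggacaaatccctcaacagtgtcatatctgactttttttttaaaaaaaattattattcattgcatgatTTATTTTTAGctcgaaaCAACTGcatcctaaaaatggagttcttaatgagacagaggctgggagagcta
Casq1: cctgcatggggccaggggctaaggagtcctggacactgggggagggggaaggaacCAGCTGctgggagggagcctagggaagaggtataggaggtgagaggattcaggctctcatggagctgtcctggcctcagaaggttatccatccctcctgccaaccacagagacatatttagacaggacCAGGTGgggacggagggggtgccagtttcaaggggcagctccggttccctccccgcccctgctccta
Ryr1: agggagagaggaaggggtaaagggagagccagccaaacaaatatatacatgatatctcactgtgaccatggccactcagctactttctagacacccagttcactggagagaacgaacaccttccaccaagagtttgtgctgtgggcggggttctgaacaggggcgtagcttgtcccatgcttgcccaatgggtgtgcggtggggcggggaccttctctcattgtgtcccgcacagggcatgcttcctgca

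Casq2 held E-box letters starting 200 and 52 bases before the start site and the MEF2 match at 69 bases. Casq1 held E-box letters at 195 and 67 bases and GGGCGG, on the other strand, at 15 bases. Ryr1 held no CANNTG, and had GGGCGG at 108 and 49 bases. The letters TATAAA were in none of the 3 windows. On either strand of 32851 promoter windows of this length, CANNTG was present in 66.2%, the MEF2 consensus in 2.92%, GGGCGG in 32.7% and TATAAA in 12.4%. The GC content was 41.6% in the Casq2 window, 61.6% in Casq1 and 54.8% in Ryr1. These matches describe the letters only.

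With activity, 6 of the 8 tested genes passed the test. Ryr1, Trdn, Cacna1s, Casq1 and Atp2a1 fell and Casq2 rose. The test was limma on log2(value + 1) with Benjamini-Hochberg adjustment over all 7247 genes tested, called at an adjusted p under 0.05, by which 14.5% of all genes were called, 7.99% higher and 6.51% lower. The median log2 change of the 8 genes was -0.33, against -0.02 for all genes tested. The called genes moved together over the 12 mice, so their calls are not independent of each other. Pearson r of log2 values with Atp2a1 was 0.96 for Ryr1, 0.94 for Cacna1s and 0.87 for Casq1. It was 0.61 for Trdn and -0.83 for Casq2. Only the calls of Ryr1, Trdn and Casq2 held in each of the 12 fits that left out a mouse and in the 9 other settings. Without IW2, IW3, IM1, IM2, IM3, AW2, AW3 or AM2 the count was 3 of 8, as it was with the replicate number as a block, with quantile normalization and with the slow-fibre score as a covariate. Without AW1 it was 8 of 8. The slow-fibre score was the mean log2 value of the slow-fibre markers, each centred on its own mean. Markers of other cells moved too: 4 of 5 endothelial markers rose with activity (summed level 206 to 305 in inactive and 241 to 455 in active mice), and so did 1 of 2 tested adipocyte markers (summed level of 4 markers 102 to 172 in inactive and 134 to 226 in active mice). The summed level of the 5 skeletal muscle genes had a median of 184466 in inactive and 135585 in active mice. Their log2 changes were -0.57 to -0.10, of which that of Myh4 alone was called. Myh4, also a fast-fibre marker, held much of this sum, at 106795 of 196528 in IM1 and 54013 of 120958 in AW3. The sum is therefore no measure of muscle content apart from Myh4. The part of these shifts in the results was not tested.

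**Figure D1:**
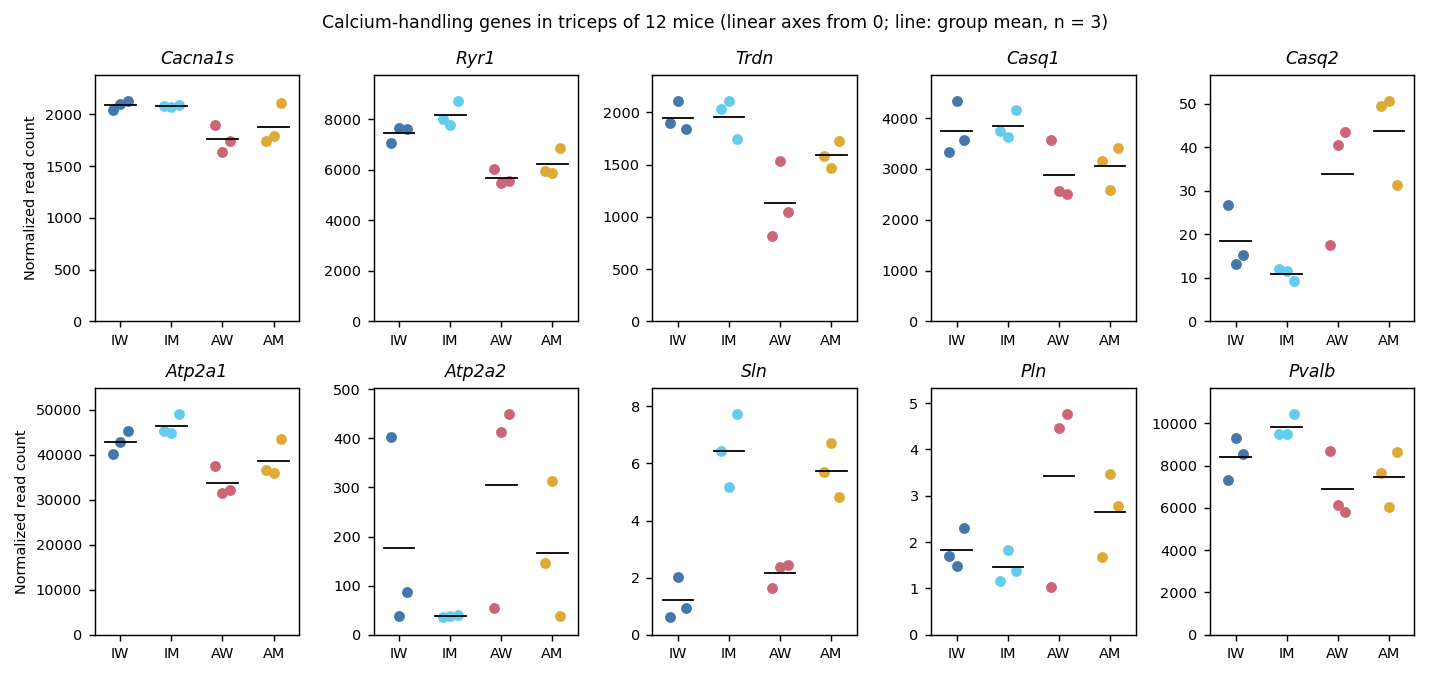
Normalized read counts of the 10 genes in each of the 12 mice, on linear axes that start at 0, by group (IW, IM, AW, AM). Each point is a mouse and each line the mean of 3 mice; all 6 active mice lie below all 6 inactive mice in Ryr1 and Trdn, and all 6 myostatin-reduced mice lie above all wild-type mice in Sln.

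Ryr1 encodes the calcium release channel of the reticulum. It lies on chromosome 7 from 29788359 to 29910170 on the minus strand (NCBIM37, mm9), and its longest transcript has 106 exons. IW mice 1, 2 and 3 had 7046, 7659 and 7624 normalized reads, and IM mice 7990.2, 7753 and 8721. Among active mice the values were 6031, 5476 and 5539 in AW and 5962, 5885 and 6858 in AM. All 6 active mice were below all 6 inactive mice, with AM3 nearest to the inactive range. Groups separated downward within both genotypes, a looser condition, in 2.30% of all genes. The share of genes with all 6 active mice below all 6 inactive mice was not computed. The mean fell by 23.6% with activity, a log2 change of -0.39 (SE 0.065, limma adjusted p = 0.00294). Within each genotype, as contrasts of the same fit with 1 variance for all 12 mice, the change was -0.39 (limma adjusted p = 0.102 in wild-type and 0.0258 in myostatin-reduced mice). The predicted gene Gm16799 and Mir1963 overlap Ryr1, and the sources used here do not say if the counting was stranded.

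Trdn encodes triadin, the reticulum protein that ties calsequestrin to the release channel (chromosome 10, 32803289 to 33196515, plus strand). Inactive mice had 1896, 2109 and 1837 normalized reads in IW and 2028, 2108 and 1743 in IM. In AW mice 1, 2 and 3 the values were 815, 1531 and 1048, and in AM mice 1579, 1465 and 1727. Every active mouse was again below every inactive mouse, though AM3 missed the lowest inactive mouse by little, and AW1 and AW3 stood below all others. The looser separation within both genotypes was downward in 2.30% of all genes. The mean fell by 30.3% (log2 change -0.56, SE 0.123, limma adjusted p = 0.0111), which was the largest fall among the 8 genes. As contrasts within each genotype, the log2 change was -0.83 in wild-type mice (limma adjusted p = 0.0695) and -0.30 in myostatin-reduced mice (limma adjusted p = 0.299). The difference between these changes, the interaction, was 0.53 (SE 0.246, unadjusted p = 0.0516 and adjusted p = 0.89 in limma). The genotype change of Trdn was 0.27 in all mice (limma adjusted p = 0.215) and passed the test in 1 of the 12 fits that left out a mouse, at 0.39 without AW2 (adjusted p = 0.0304), while without AW1 it was 0.17 (adjusted p = 0.313).

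Cacna1s encodes the pore-forming subunit of the dihydropyridine receptor, the voltage sensor (chromosome 1, 137949327 to 138016399, plus strand). The 6 inactive mice were tightly grouped, at 2042, 2099 and 2128 normalized reads in IW and 2080.05, 2071 and 2086 in IM. The AW mice had 1898, 1632 and 1745, and the AM mice 1742, 1792 and 2106. All active mice but AM3 were below all inactive mice. The mean fell by 12.7% (log2 change -0.20, SE 0.0593, limma adjusted p = 0.0402). The call was kept in 2 of the 12 fits that left out a mouse, those without AW1 and AM3. It was lost with the replicate block (adjusted p = 0.0503) and without the minimum (adjusted p = 0.052), where the change was still -0.20. With quantile normalization the change was -0.097 and the call was lost (adjusted p = 0.293).

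**Figure D2:**
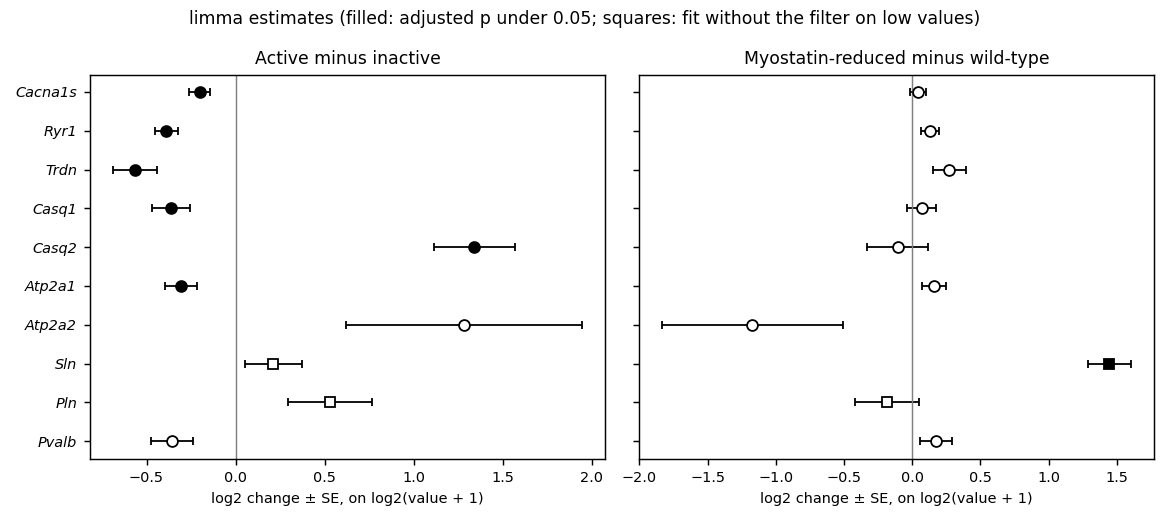
Log2 changes of the 10 genes with activity (left) and with genotype (right), as limma estimates with bars of 1 SE on the log2(value + 1) scale. Filled points passed an adjusted p of 0.05 and squares are Sln and Pln from the fit without a minimum; Casq2 stands at 1.34 for activity and Sln at 1.44 for genotype.

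Casq1 encodes the calsequestrin of fast fibres, the main calcium-binding protein inside the store (chromosome 1, 174140025 to 174150026, minus strand, overlapped by Gm17224). IW mice had 3329, 4338 and 3566 normalized reads, and IM mice 3741, 3636 and 4151. AW mice had 3569, 2559 and 2516, and AM mice 3161, 2580.2 and 3422. The groups overlapped, since AW1 and AM3 were within the inactive range. The mean fell by 21.8% (log2 change -0.36, SE 0.106, limma adjusted p = 0.0384). That call was kept without IW1, AW1, AM1 or AM3 and lost in the other 8 fits that left out a mouse, with the replicate block (adjusted p = 0.0529) and with quantile normalization (adjusted p = 0.0675).

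Casq2 encodes the cardiac and slow-fibre calsequestrin (chromosome 3, 101890338 to 101950437, plus strand). It had 26.7, 13.3 and 15.3 normalized reads in IW and 12.1, 11.6 and 9.25 in IM. In active mice it had 17.6, 40.6 and 43.5 in AW and 49.4, 50.6 and 31.3 in AM. All active mice but AW1 were above all inactive mice, and IW1 was the highest inactive mouse. The active mean was 2.64 times the inactive mean, at 38.8 ± 12.5 against 14.7 ± 6.21 (SD, n = 6 in each), and the log2 change was 1.34 (SE 0.226, limma adjusted p = 0.00306). With the slow-fibre score as a covariate the log2 change was 0.92 (limma adjusted p = 0.00336). As within-genotype contrasts of the fit without that covariate, it was 0.81 in wild-type mice (limma adjusted p = 0.258) and 1.88 in myostatin-reduced mice (limma adjusted p = 0.00864). The interaction was 1.07 (SE 0.452, unadjusted p = 0.0348 and adjusted p = 0.89 in limma), so a difference between the genotypes did not pass the test.

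The balance of the calsequestrin forms was set out per mouse, with no test. Casq2 reads per 100 Casq1 reads were 0.803, 0.306 and 0.43 in IW mice and 0.324, 0.32 and 0.223 in IM mice. They were 0.494, 1.59 and 1.73 in AW mice and 1.56, 1.96 and 0.915 in AM mice. The 3 AM mice were above every inactive mouse, and AW1 lay within the range of IW. No stretch of 65 bases, the read length, was shared between the Casq1 and Casq2 transcripts, the closest differing at 12 bases.

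Atp2a1 encodes SERCA1, the pump of fast fibres (chromosome 7, 133589372 to 133606622, minus strand, overlapped by Rabep2). IW mice had 40254, 42819 and 45156 normalized reads and IM mice 45276, 44851 and 48973. In AW the values were 37583, 31497 and 32178, and in AM 36506, 36034 and 43496. Within each genotype the active mice were below the inactive mice, a downward separation that 2.30% of all genes showed. AM3 alone reached the range of inactive wild-type mice. The mean fell by 18.7% (log2 change -0.30, SE 0.0889, limma adjusted p = 0.0384). Its call was kept in 3 of the 12 fits that left out a mouse, those without IW1, AW1 and AM3, and was lost with the block (adjusted p = 0.0593) and without the minimum (adjusted p = 0.0931). Quantile normalization fixed its value, since it held the same rank in every mouse, and so could show no change.

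Atp2a2 encodes SERCA2, the pump of slow fibres and the heart (chromosome 5, 122903531 to 122952183, minus strand). Its values spread widely within groups, at 403, 38.7 and 86.7 normalized reads in IW and 36.2, 39.04 and 40.7 in IM. AW mice had 54, 413 and 449, and AM mice 147, 313 and 37.3. Both high and low mice occurred in IW, AW and AM, and only the IM mice were uniformly low. The log2 change with activity was 1.28 (SE 0.662, limma adjusted p = 0.211) and with genotype -1.17 (SE 0.662, limma adjusted p = 0.326). Without AW1 the activity change passed the test at 1.78 (limma adjusted p = 0.0489). Atp2a2 reads per 100 Atp2a1 reads ranged from 0.0799 in IM1 to 1.4 in AW3. The Atp2a1 and Atp2a2 transcripts shared no stretch of 65 bases, the closest differing at 4 bases.

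**Figure D3:**
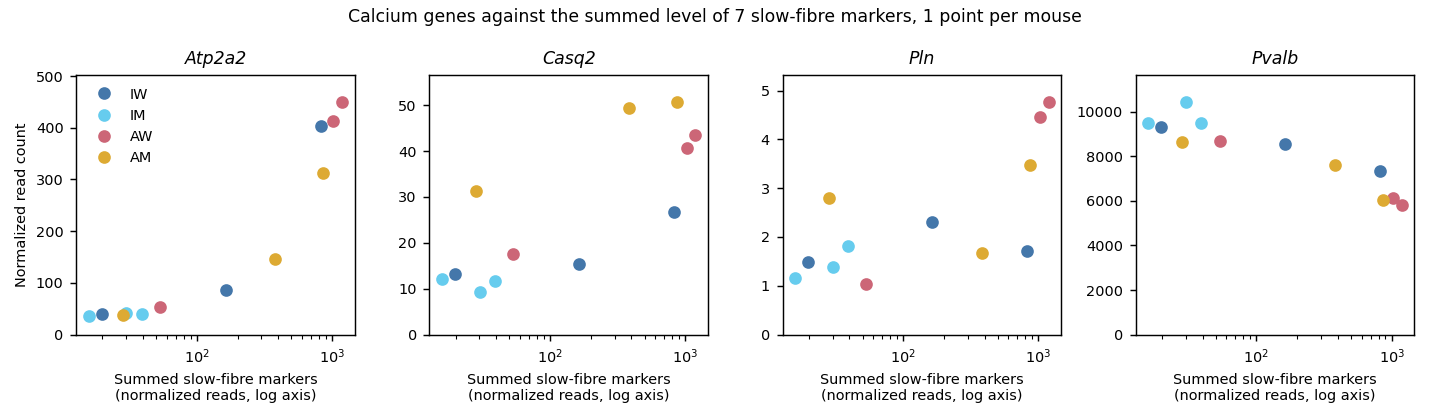
Normalized read counts of Atp2a2, Casq2, Pln and Pvalb against the summed level of 7 slow-fibre markers (log axis), with 1 point per mouse coloured by group. Atp2a2 is above 100 in the 5 mice with the highest marker sums, while the AM mouse with a marker sum of 28.2 has 31.3 Casq2 reads, above every inactive mouse.

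The spread of Atp2a2 was set beside the slow-fibre markers mouse by mouse. The marker sums were highest in AW3 (1188), AW2 (1023), AM2 (862), IW1 (827) and AM1 (381), and these were the 5 mice with the highest Atp2a2. Myh7, the slow myosin heavy chain, was 498, 447, 393, 375.5 and 164 in the same mice and 1.29 to 63.1 in the other 7. With the slow-fibre score as a covariate the log2 change of Atp2a2 with activity was -0.08 (limma adjusted p = 0.821). The marker sum itself had a median of 34.6 in inactive and 621 in active mice. Since Atp2a2 followed the markers, that fit cannot tell its change from theirs. Casq2 followed the markers less closely: AM3, with a marker sum of 28.2, had more Casq2 than any inactive mouse, IW1 included.

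The mice at the extremes were the opposite ones in 5 of the 6 more abundant genes, Trdn being the exception. Among active mice, AW1 and AM3 had the lowest slow-marker sums, and they were the pair with the highest values of Atp2a1, Casq1, Pvalb, Ryr1 and Cacna1s. Among inactive mice, IW1 had the highest marker sum and the lowest value of each of these 5 genes. The other mice did not all follow, since IW3, with a marker sum of 163, had the highest Cacna1s (2128). How many of all genes show this pattern was not computed. For Trdn the highest active mice were AM3 and AM1, and the lowest inactive mouse was IM3. With the slow-fibre score as a covariate the log2 change with activity was -0.32 for Ryr1 (limma adjusted p = 0.00539) and -0.60 for Trdn (adjusted p = 0.0261). It was -0.22 for Atp2a1 (limma adjusted p = 0.0708), -0.18 for Casq1 (adjusted p = 0.12) and -0.13 for Cacna1s (adjusted p = 0.148). Of 7 fast-fibre markers, 2 rose with activity and 2 fell, and their summed level was 127700.1 to 162229.5 in inactive and 107440.4 to 141431 in active mice. Myh2 changed by 2.04 (limma adjusted p = 0.0251), Myh1 by 1.51 (adjusted p = 0.0019), Myh4 by -0.57 (adjusted p = 0.0127) and Actn3 by -0.49 (adjusted p = 0.0186). The part of these shifts in the calcium genes was not tested.

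Pvalb encodes parvalbumin, the soluble calcium buffer of fast fibres (chromosome 15, 78021544 to 78036830, minus strand). It had 7339, 9331 and 8551 normalized reads in IW and 9486, 9511 and 10430.3 in IM. AW mice had 8711, 6143 and 5801, and AM mice 7629, 6061 and 8669. The AM mice were all below the IM mice, and the wild-type groups overlapped. The log2 change with activity was -0.36 (SE 0.117, limma adjusted p = 0.0577), and it passed the test without IW1, AW1 or AM3 (adjusted p = 0.0443, 0.00884 and 0.035) and with median-ratio size factors (adjusted p = 0.0498) or array quality weights (adjusted p = 0.0102). The change was -0.16 with the slow-fibre score as a covariate (limma adjusted p = 0.198) and -0.16 with quantile normalization (adjusted p = 0.147).

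With genotype, none of the 8 genes tested passed limma, where 5.78% of all genes did; 1 of the 8, Trdn, had an unadjusted p under 0.05, as had 22.5% of all genes. The median log2 change was 0.10 for the 8 genes, against -0.0049 for all genes. Changes ran from -1.17 for Atp2a2 to 0.27 for Trdn, and those of Ryr1 (0.13), Atp2a1 (0.16), Pvalb (0.18), Casq1 (0.07), Cacna1s (0.04) and Casq2 (-0.11) lay between. These estimates depended on single mice. With a mouse left out the change of Atp2a2 ran from -1.67 (without AW1) to -0.71 (without IW1), being -0.76 without AM3, and that of Casq1 from 0.025 (without AW3) to 0.15 (without AW1). With the slow-fibre score as a covariate the change of Atp2a2 was -0.17. In the contrast within inactive mice no gene was called and none had an unadjusted p under 0.05 (over all genes, limma called 2.51% and 17.4% had such a p). In that within active mice none was called and 1, Trdn, had an unadjusted p under 0.05 (over all genes, 0.207% and 12.3%).

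Sln encodes sarcolipin, a small membrane peptide that binds SERCA and lowers its calcium transport (chromosome 9, 53698058 to 53701651, plus strand). IW mice had 0.63, 2.03 and 0.94 normalized reads and AW mice 1.64, 2.39 and 2.46. IM mice had 6.43, 5.18 and 7.72 and AM mice 5.71, 6.7 and 4.81. All 6 myostatin-reduced mice were above all 6 wild-type mice. Separation upward within both activity levels, a looser condition, was shown by 2.51% of all genes. These are low counts, from an estimated 7.01 reads in IW1 to 87 in AM2, and all were above the floor of 3 reads. The mean was 6.09 ± 1.07 in myostatin-reduced and 1.68 ± 0.76 in wild-type mice (SD, n = 6 in each), or 3.62 times as high. In the fit without a minimum, over all 10187 genes, the log2 change was 1.44 (SE 0.159, limma adjusted p = 0.000403), and 2.68% of genes were called higher for genotype there. The call was kept in each fit without a minimum that left out a mouse, with adjusted p from 8.1e-05 to 0.00252.

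Within activity levels the Sln change was 1.80 in inactive mice (limma adjusted p = 0.00189) and 1.09 in active mice (limma adjusted p = 0.104). The interaction was -0.70 (SE 0.318, unadjusted p = 0.0454 and adjusted p = 0.9 in limma) and did not pass the test. Without IW2 the change in active mice passed at an adjusted p of 0.0382. With activity the log2 change of Sln was 0.21 (limma adjusted p = 0.419). Sln, Casq2 and Atp2a2 also stand in gene lists that the study drew from these samples, so these values are no independent evidence on those lists. Active minus inactive wild-type mice gave log2 changes of 0.56 for Sln, 0.81 for Casq2 and 0.95 for Atp2a2, none called. Read by its stated convention, the study gives each the opposite sign in that contrast. It also lists Sln and Atp2a2 for the interaction, by another test, and neither was called here.

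Pln encodes phospholamban, the SERCA2 inhibitor of heart and slow muscle (chromosome 10, 53057492 to 53065805, plus strand, overlapped by Gm10942 and Gm9766). Its mean over all 12 mice was the lowest of the 10 genes, though Sln had lower means in IW and in AW. Pln had 1.71, 1.48 and 2.3 normalized reads in IW and 1.16, 1.82 and 1.38 in IM. AW mice had 1.04, 4.46 and 4.76, and AM mice 1.68, 3.47 and 2.79. The 4 highest mice were active, but AW1 was the lowest of all 12. In the fit without a minimum the log2 change was 0.53 with activity (SE 0.237, limma adjusted p = 0.169) and -0.19 with genotype (limma adjusted p = 0.724). Without AW1 the activity change passed at 0.77 (adjusted p = 0.00579).

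For activity within each genotype, limma called 2 of the 8 genes in myostatin-reduced mice, Casq2 higher and Ryr1 lower, where 7.84% of all genes were called. In wild-type mice it called none of the 8, where 0.0276% of all genes were called, and 6 of the 8 had an unadjusted p under 0.05, as had 14.7% of all genes. The wild-type count was 3 without AW1 (Casq2, Ryr1 and Trdn) and 1 without AW2 (Trdn), and with array quality weights it was 5. In myostatin-reduced mice it was 1, Casq2, without IM1, IM2, IM3 or AM2. The interaction was called for none of the 8 genes (1, Casq2, at an unadjusted p under 0.05, as were 4.10% of all genes), as for 0.00% of all genes.

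Partner genes of the same machinery were counted from 5 lists of 46 genes, of which 42 were measured and 40 tested. With activity, 8 of the 40 fell and 2 rose, where 6.51% of all genes tested fell and 7.99% rose (14.5% in all). The median log2 change of the 40 was -0.10, against -0.02 over all genes tested. All 10 kept their direction under every setting tried, but the count moved between 5 and 16 when a mouse was left out: it was 5 without IW2 or AW2, 6 without IM3, AW3 or AM2, and 16 without AW1. It was 17 with array quality weights and 4 with the slow-fibre covariate (2 higher and 2 lower). With the replicate block it was again 10, but Asph lost its call (limma adjusted p = 0.0537) and Cacna2d1 gained one (limma adjusted p = 0.0457). Cacna2d1, a calcium channel subunit, is named here because its call changed, after its values were seen.

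Of 13 release and triad partners, 4 fell with activity and none rose, where 6.51% of all genes tested fell. Cacng1, the gamma subunit of the voltage sensor, went from 278 ± 23.1 normalized reads in inactive to 214 ± 39.3 in active mice (SD, n = 6 in each), a log2 change of -0.39 (limma adjusted p = 0.0311). Jph2, which holds the tubule and reticulum membranes together, changed by -0.30 (limma adjusted p = 0.0295). Asph, whose locus also encodes the triad protein junctin, changed by -0.24 (limma adjusted p = 0.038), and Cacng6, another gamma subunit, by -0.23 (limma adjusted p = 0.0292). The estimates of all 13 were below 0, from -0.39 to -0.03, as were 55.5% of the estimates over all genes.

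Of 8 tested calcium-binding partners, 1 rose and none fell, and of 6 mitochondrial genes 1 rose. Both shares are near the 14.5% of all genes called for activity, and so are no result about these lists. S100a1, a calcium sensor that binds the release channel and SERCA, went from 73.4 ± 3.74 to 102.5 ± 10.3 normalized reads (SD, n = 6 in each), a log2 change of 0.47 (limma adjusted p = 0.00179). Of 9 tested genes of surface and store-operated transport, the sodium-calcium exchangers Slc8a3 (-0.34, limma adjusted p = 0.011) and Slc8a1 (-0.32, limma adjusted p = 0.019) fell, where 6.51% of all genes tested fell. Of the mitochondrial genes, Letm1, a protein of the inner membrane linked to cation exchange, rose from 76.3 ± 6.21 to 98.4 ± 5.71 (SD, n = 6 in each; log2 change 0.37, limma adjusted p = 0.00179). Of 4 calmodulin kinase genes, Camk2a (-0.39, limma adjusted p = 0.00545) and Camk2g (-0.25, limma adjusted p = 0.0137) fell, against the same 6.51% of all genes.

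**Figure D4:**
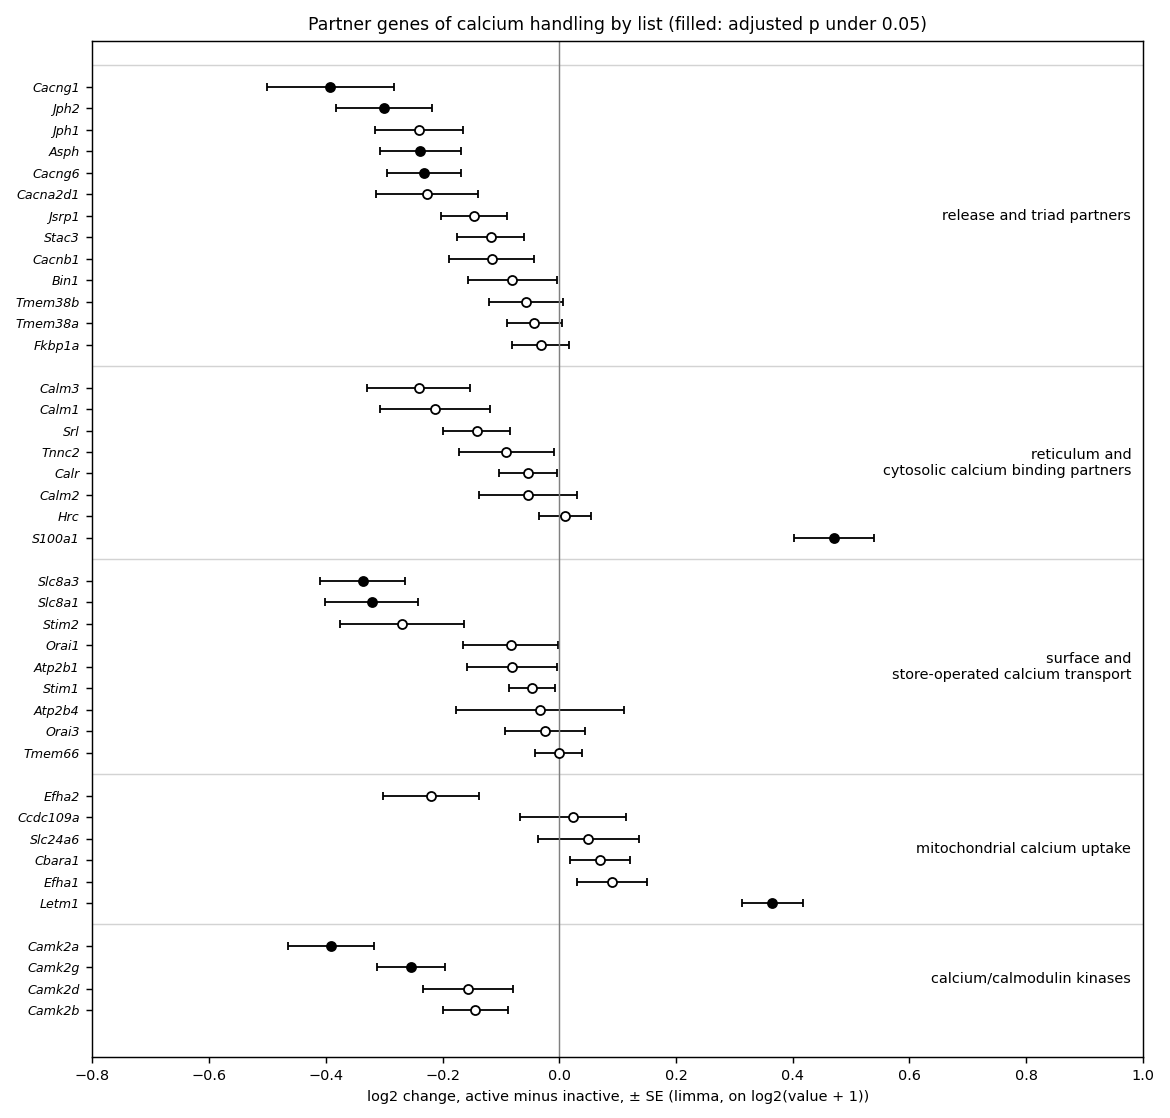
Log2 changes with activity of the 40 tested partner genes, grouped by list, as limma estimates with bars of 1 SE on the log2(value + 1) scale. Filled points passed an adjusted p of 0.05; the 13 release and triad partners lie between -0.39 and -0.03, and S100a1 (0.47) and Letm1 (0.37) stand apart to the right.

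With genotype, 2 of the 40 partners passed, both higher in myostatin-reduced mice. That share is near the 5.78% of all genes called for genotype, and so is no result about the partners. Bin1, which shapes the transverse tubules, changed by 0.29 (limma adjusted p = 0.047). Slc8a3 changed by 0.31 (limma adjusted p = 0.0299), so it moved up with genotype and down with activity. No partner was called under genotype without IW1, IM1, IM2, IM3 or AM3 or with the slow-fibre covariate, 1 was called without IW2, AW2, AW3 or AM1, without the minimum and with the replicate block (where Bin1 had a limma adjusted p of 0.0549), and 5 were called without AW1.

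The genes most like each called member were taken among 2549 tested genes with a mean of at least 50, by Pearson r of log2 values over the 12 mice, which share activity, genotype and scaling. Casq2 was most like Adck3 (r = 0.98), Acss2 (0.97) and Got2 (0.97). Ryr1 was most like Scn4a, the muscle sodium channel (r = 0.97), Myo18a (0.96) and Rbfox1 (0.96). Atp2a1 was most like Rbfox1 (r = 0.97), Dnajb12 (0.97) and Dysf (0.96), and Casq1 like Ehbp1l1 (r = 0.97), Man2a2 (0.96) and 4933439F18Rik (0.96). Cacna1s was most like Sqstm1 (r = 0.95), Tmem109 (0.93) and the triad gene Jsrp1 (0.92). Trdn had the weakest likeness, with Srrm2 (r = 0.86), Jun (0.83) and Pmpca (0.83).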

How the data were processed

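Polyadenylated RNA of 12 triceps was sequenced by the authors as single-end reads, mapped with CASAVA to mm9 and counted in RefSeq exons. The deposited signal is a normalized read count per gene, scaled by the authors to an equal trimmed mean between samples and not divided by gene length. Values under 5 were whole multiples of the step of 1 read (within 0.0055) in 88.8% to 91.2% and values from 20 to 50 in 66.5% to 69.3%, so whole reads were not recovered and no count test was run.

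Groups came from the sample titles. Genes with a mean of at least 10 entered limma 3.58.1 (R 4.3.3) as log2(value + 1), which understates changes of low genes, with a mean per group, an eBayes trend and two-sided Benjamini-Hochberg adjusted p. All contrasts used the same 12 mice. Ratios, levels per kb and orders were described with no test. The code was tested on simulated data. The members and lists were chosen with earlier results of these data known. Named genes were all members, called partners and the partner with the largest change in each list, and the 3 genes most like each called member.

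Replicate numbers 1 to 3 stand for different mice in each group. Deviations of same-numbered mice from their group means had correlations of 0.236, 0.171 and 0.322 between IM and AM. All were over 0.1, the level at which a pairing was considered, but no label pairs these mice. Between the other groups the correlations ran from -0.605 to 0.484. The replicate block fitted an effect per number over all groups, so it could not model a pairing of IM and AM alone. Settings were the pseudocount, the minimum, size factors, quantile normalization, robust variance, array weights, a replicate block, a slow-fibre covariate and each mouse left out. Combinations without a minimum, for Sln and Pln, were chosen after seeing the data. Gene positions and lengths are from NCBIM37, and promoter windows from RefSeq on GRCm38.p6. Counting may have divided reads between genes that overlap.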

Additional observations from a re-analysis of the deposited data

How the results depend on the processing

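Of the 8 genes tested, 6 were called for activity; the count was 3 with quantile normalization, with the replicate block and with the slow-fibre covariate, and 3 to 8 with a mouse left out. For genotype the count was 0, 1 without the minimum (Sln), and 0 to 1 with a mouse left out; for the contrast within inactive mice it was 1 without the minimum. Within wild-type mice the activity count was 5 with array quality weights and 0 to 3 with a mouse left out, and within myostatin-reduced mice 1 to 2. The block changed no other call than those of Atp2a1, Cacna1s and Casq1 for activity among the 8 genes. The cause of these shifts was not tested. Some estimates near 0 or with wide errors changed sign. With the slow-fibre covariate the log2 change of Atp2a2 was -0.0809 for activity, -0.0287 in wild-type and -0.133 in myostatin-reduced mice, with an interaction of -0.104. The genotype change in that fit was -0.0647 for Casq1, 0.201 for Casq2, -0.00748 for Cacna1s and, with no minimum, 0.0111 for Pln. Quantile normalization gave genotype changes of -0.0894 for Pvalb and -0.011 for Ryr1. With a mouse left out, the genotype change of Casq2 ran from -0.309 to 0.0354 (above 0 without IW1, AW3 or AM3). The interaction of Atp2a2 was -0.0806 with array weights and ran from -0.333 to 1.49 with a mouse left out (below 0 without IW1, AW1 or AM2). Sln kept its genotype call under every combination run without the minimum (log2 change 0.73 with a pseudocount of 5 to 1.92 with 0.1). With 3 mice per group, low counts of Sln and Pln and uneven slow-fibre markers limit what single contrasts can show.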
